A study of Mus musculus with 6 samples.

Results

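The RNA exosome subunits were followed in NIH/3T3, an immortalized line of mouse fibroblasts, after knockdown of Aldoa. The genes were chosen by symbol from the deposited expression table and comprised the cap subunits Exosc1, Exosc2 and Exosc3, the ring subunits Exosc4, Exosc5, Exosc7, Exosc8 and Exosc9, and the catalytic subunits Exosc10 and Dis3. All 10 genes were found among the 18001 genes of the table. Exosc6 was not analysed here. One group of cells was treated with siRNAs against Aldoa, which encodes the glycolytic enzyme aldolase A (siAldoa), and the other with non-targeting siRNAs (siCtrl). Both groups were the same line, kept in the same serum-supplemented medium and collected 48 h after transfection, and poly(A) RNA was sequenced in 3 replicates each. The study asked whether loss of ALDOA lowers the expression of genes needed to make ribosomes, and the exosome is one of the enzymes that process ribosomal RNA precursors.

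The RNA exosome degrades RNA from its 3′ end. A ring of catalytically inactive subunits and a cap of RNA-binding subunits form a channel, through which RNA is threaded to DIS3, the processive exonuclease at the bottom, while EXOSC10 sits on top and trims RNA ends in the nucleus. The nuclear enzyme matures ribosomal RNA, small nucleolar RNA and small nuclear RNA and removes promoter upstream transcripts, whereas the cytoplasmic enzyme works with the SKI complex in mRNA turnover. Cofactors with helicase, polyadenylation or RNA-binding activity bring the substrates to the complex.

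The genes for the subunits lie on different chromosomes, apart from the pairs on chromosomes 3 and 4. RefSeq promoter windows (GRCm38.p6, the assembly also known as mm10), which run from 250 bases before to 50 bases after the start, were matched for 8 of the 10 genes (9 windows, as Exosc10 has a pair of starts). Exosc4 and Exosc9 had no entry. The 150 bases before the start that contained no annotated exon are printed 5′ to 3′ for Exosc5, whose mRNA fell after Aldoa knockdown, for Exosc10, whose mRNA was not called, and for Exosc2, the least abundant subunit. All of them lie on the plus strand. Capitals mark exact matches on either strand. The motifs searched were the E-box with the letters CACGTG, the motif of the factor NRF1 with the letters GCGCATGCG, the CCAAT box, which is named for its letters, and the GC box with the letters GGGCGG.
Exosc5 promoter, chr7:25659003-25659152: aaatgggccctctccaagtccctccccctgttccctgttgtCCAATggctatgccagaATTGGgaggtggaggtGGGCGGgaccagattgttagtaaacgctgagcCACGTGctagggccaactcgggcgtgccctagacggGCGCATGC
Exosc10 promoter, chr4:148558269-148558418: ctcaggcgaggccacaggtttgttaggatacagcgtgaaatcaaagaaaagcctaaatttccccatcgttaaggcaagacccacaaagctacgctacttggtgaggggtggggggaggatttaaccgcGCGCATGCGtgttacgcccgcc
Exosc2 promoter, chr2:31670565-31670714: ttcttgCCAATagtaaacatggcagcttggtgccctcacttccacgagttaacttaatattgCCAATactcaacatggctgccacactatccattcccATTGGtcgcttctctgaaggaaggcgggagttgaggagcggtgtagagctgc

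The Exosc5 stretch held the E-box 44 bases before the start, the GC box 76 bases before it and CCAAT boxes 109 and 92 bases before it, the nearer one on the reverse strand. The last capitals of the Exosc5 line are the part of an NRF1 match that runs across the start. The complete NRF1 match of Exosc10 began 22 bases before the start. Exosc2 had CCAAT boxes 144, 88 and 52 bases before the start and a match to the YY1 motif AAGATGGCG behind the start.

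The whole windows were then searched, on both strands, for those letters, for the ETS factor motif CCGGAAG, for the YY1 motif given above and for the letters TATAAA of the TATA box. None of these motifs contains another. The GC box was found in 7 of the 9 windows, against 35.7% of 32851 RefSeq promoter windows of the same length. The ETS letters were present in 3 of 9 (8.86% of all windows), the CCAAT box in 4 of 9 (37.4%), the NRF1 letters in 2 of 9 (1.75%), the E-box in 1 of 9 (7.15%) and the YY1 letters in 1 of 9 (1.40%). The TATA box letters were not found in the 9 windows, and 13.6% of all windows held them. The windows of the subunit genes had a GC content between 48.0% and 75.7%, where the median over all windows was 52.7%. These counts describe letters only, and the NRF1 letters were shared by a gene that fell, Exosc5, and a gene that was not called, Exosc10.

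Each library held between 3692341 and 3771129 gene-assigned reads after the authors' subsampling. Expression is given as CPM (read counts of a gene scaled to the size of the library) as deposited. The knockdown was visible in every library. Aldoa stood at 522, 536 and 545 CPM in siCtrl and at 62.9, 69.2 and 72.0 CPM in siAldoa, a log2 fold change of -2.96 (SE 0.052, limma adjusted p = 1.3e-21). Replicates 1 and 2 of a group were close to sampling noise (chi-square per degree of freedom of 1.12 in siCtrl and 1.11 in siAldoa), whereas pairs with replicate 3 lay between 2.07 and 3.24, so the results are also given below without replicate 3. Of the fibroblast markers, 10 of 13 were in the table. Their summed level was between 13112 and 13648 CPM in siCtrl and between 10855 and 11527 CPM in siAldoa, with 4 genes lower and 4 higher. Of the markers of other cell types (epithelial, blood, endothelial, muscle and fat), 10 of 12 were in the table, none at 0 in every library and 4 with a mean under 1 CPM. Their sums of 21.7 to 22.7 CPM in siCtrl and 10.2 to 14.7 CPM in siAldoa moved with the groups, and their part in the results below was not tested.

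After Aldoa knockdown, 4 of the 10 exosome subunit mRNAs fell, by a modest amount, and 0 were called higher. Exosc9, Exosc1, Exosc5 and Dis3 fell to between 77.2% and 88.2% of their control means and passed an adjusted p of 0.05 in limma on log2(CPM + 1), with the adjustment over all 18001 genes. The same rule called 10.0% of all genes lower and 10.4% higher, and 17.7% lower among the 9280 genes expressed at or above the level of the least abundant subunit (a mean of 14.1 CPM over the 6 libraries). At an unadjusted p under 0.05, limma gave 5 lower and 0 higher. edgeR called the same 4 genes lower and 0 higher, DESeq2 called 2 lower (Exosc1 and Exosc9) and 0 higher, and limma without the mean-variance trend called 0 in either direction (5 lower at an unadjusted p under 0.05). Limma with the replicate number as a block called 2 lower (Exosc1 and Exosc9) and 0 higher. For 6 of the 10 genes, all siAldoa libraries lay below all siCtrl libraries, a pattern shown by 17.1% of all genes and 24.8% of those expressed at or above the least abundant subunit. The median log2 fold change of the 10 subunits was -0.20, that of all genes -0.002. As these are bulk samples, less RNA per cell and fewer cells expressing a gene cannot be told apart. The labels only number the replicates, which the study calls biological. Its methods add ERCC RNA at another step for replicate 1 than for replicates 2 and 3. Replicate 3 of siCtrl and of siAldoa deviated alike from their group means (correlation 0.298). The fits without a block leave this shared part unmodelled and measure the spread between these samples. In limma with the block the adjusted p was 0.062 for Exosc5 and 0.080 for Dis3. As replicates 1 and 2 of a group were close to sampling noise, a fit without replicate 3 holds little spread beyond counting.

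**Figure D1:**
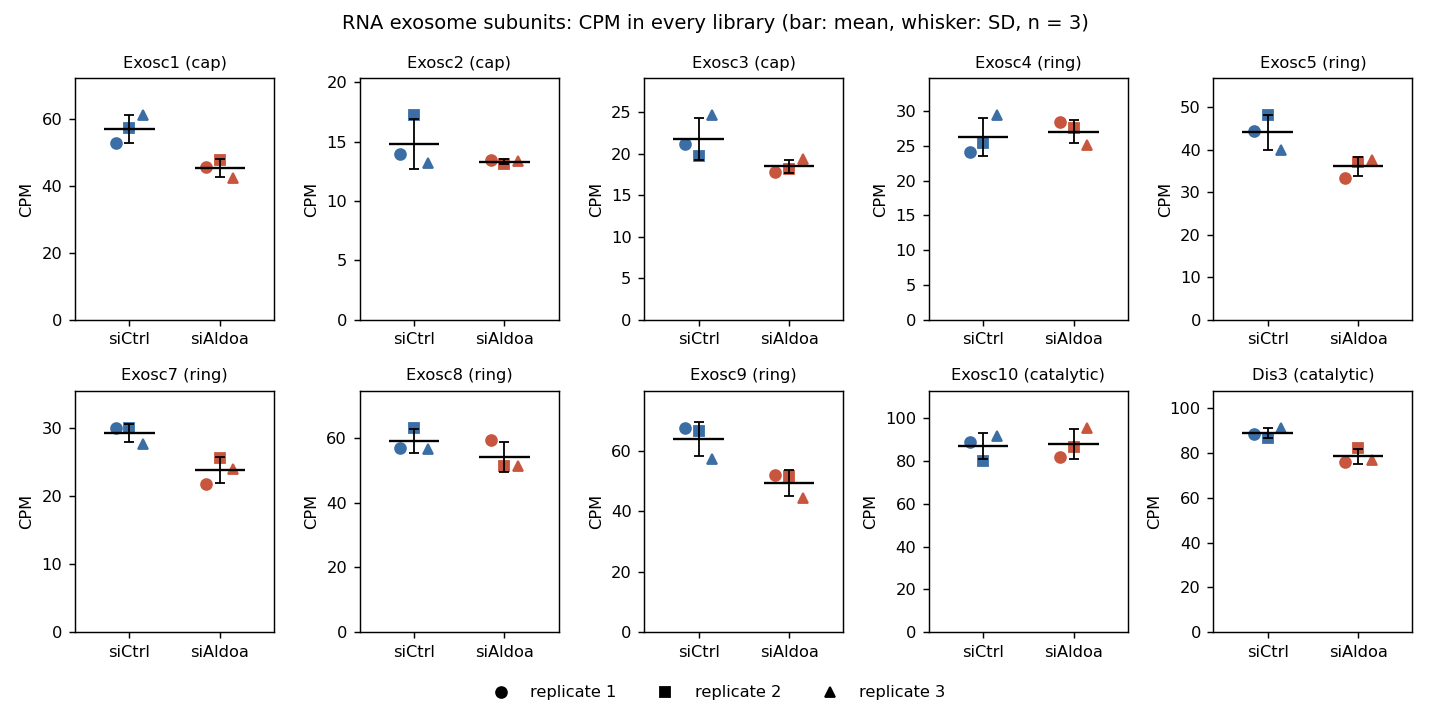
CPM (vertical axes, each starting at 0) of the 10 exosome subunit genes in the 3 siCtrl (blue) and 3 siAldoa (red) libraries, with marker shape for the replicate number, a bar for the mean and a whisker for the SD. The groups are apart for Exosc1, Exosc3, Exosc5, Exosc7, Exosc9 and Dis3, and overlap for Exosc2, Exosc4, Exosc8 and Exosc10.

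The summed CPM of the 10 subunits was 489, 494 and 493 in siCtrl and 430, 441 and 430 in siAldoa. The siAldoa libraries all lay below the siCtrl libraries, at 88.2% of the control mean (492 ± 2.95 in siCtrl, 434 ± 6.08 in siAldoa, SD, n = 3). By role, the sum over the cap subunits was at 82.3% of control, that over the ring subunits at 85.5% and that over the catalytic subunits at 94.7%. Exosc1 made up 57.1 of the 93.7 CPM of the cap sum in siCtrl. By median log2 fold change the ring (-0.28) was lower than the cap (-0.22) and the catalytic subunits (-0.08).

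Among the cap subunits, which bind RNA at the entry of the channel, Exosc1 fell. It encodes the CSL4 protein (ENSMUSG00000034321, chr19:41922292-41933423, minus strand, GRCm38, GENCODE annotation). Exosc1 measured 52.9, 57.2 and 61.1 CPM in siCtrl and 45.6, 47.8 and 42.4 CPM in siAldoa. All siAldoa libraries were below the lowest siCtrl library. The mean went from 57.1 ± 4.13 to 45.3 ± 2.73 CPM (SD, n = 3), a log2 fold change of -0.33 (SE 0.083, 95% interval -0.50 to -0.15, limma adjusted p = 0.0059). The call was also made by edgeR (adjusted p = 0.0044) and DESeq2 (adjusted p = 0.048). Without siCtrl replicate 3 the limma adjusted p was 0.054 (log2 fold change -0.28), without siAldoa replicate 3 it was 0.0504 (log2 fold change -0.28), and without replicate 3 of both groups it was 0.17 (log2 fold change -0.23). The limma adjusted p was also above 0.05 without replicate 1 of both groups (0.059), without replicate 2 of both groups (0.089) and without the mean-variance trend (0.079).

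Exosc2 and Exosc3, the cap proteins RRP4 and RRP40, did not pass the test. Exosc3 (chr4:45316613-45342732, minus strand) measured 21.1, 19.7 and 24.6 CPM in siCtrl and 17.8, 18.2 and 19.4 CPM in siAldoa. The groups were apart, but only just, with siAldoa replicate 3 next to siCtrl replicate 2. The log2 fold change was -0.22 (SE 0.13, 95% interval -0.49 to 0.04, limma adjusted p = 0.26), and each value rested on 66 to 93 reads. Without siCtrl replicate 3 it was -0.14. Exosc2 (chr2:31670715-31681349, plus strand) was the least abundant subunit, with 14.0, 17.2 and 13.2 CPM in siCtrl and 13.5, 13.1 and 13.4 CPM in siAldoa. Here siCtrl replicate 2 was high and the other libraries were level, so that the groups overlapped (log2 fold change -0.14, SE 0.15, 95% interval -0.45 to 0.18, limma adjusted p = 0.61). Without siCtrl replicate 2 its log2 fold change was -0.03. With 49 to 63 reads per library, counting alone gives Exosc2 an error of 13.8%. Moreover, its annotated transcripts share stretches of at least 200 bases at 90% identity or more with those of 61 other genes. Of these, 43 are in the table. The 61 include an antisense gene that overlaps Exosc2 itself. Some of the Exosc2 reads may therefore belong to other genes.

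In the ring, whose subunits form the body of the channel and no longer cut RNA, Exosc9 gave the largest difference of all 10 genes. It encodes RRP45 (ENSMUSG00000027714, chr3:36552606-36565727, plus strand). Exosc9 measured 67.7, 66.5 and 57.4 CPM in siCtrl and 52.1, 51.6 and 44.3 CPM in siAldoa. Replicate 3 was the lowest in both groups, and every siAldoa library was below every siCtrl library. The mean went from 63.8 ± 5.60 to 49.3 ± 4.39 CPM (SD, n = 3), a log2 fold change of -0.37 (SE 0.085, 95% interval -0.54 to -0.19, limma adjusted p = 0.0028). The call held in edgeR (adjusted p = 0.0014) and DESeq2 (adjusted p = 0.019) and after removal of any single library. It also held without replicate 3 of both groups (limma adjusted p = 0.044), where the libraries left were close to sampling noise. It was lost without replicate 1 of both groups (limma adjusted p = 0.11), without replicate 2 of both groups (limma adjusted p = 0.13) and in limma without the mean-variance trend (adjusted p = 0.090).

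Exosc5, which encodes RRP46 (ENSMUSG00000061286, chr7:25659164-25671368, plus strand), fell as well. It measured 44.4, 48.1 and 39.9 CPM in siCtrl and 33.5, 37.1 and 37.7 CPM in siAldoa. The groups were apart, with siCtrl replicate 3 close to the siAldoa values. The mean went from 44.2 ± 4.10 to 36.1 ± 2.31 CPM (SD, n = 3), a log2 fold change of -0.28 (SE 0.094, 95% interval -0.48 to -0.09, limma adjusted p = 0.036). edgeR also called it (adjusted p = 0.035) and DESeq2 did not (adjusted p = 0.16). The call was lost when any single library other than siCtrl replicate 3 was left out. The limma adjusted p was 0.11 without siCtrl replicate 1, 0.18 without siCtrl replicate 2, 0.16 without siAldoa replicate 1, 0.078 without siAldoa replicate 2 and 0.068 without siAldoa replicate 3. Without siCtrl replicate 3 it was 0.029, and without replicate 3 of both groups 0.097 at a log2 fold change of -0.38. It was 0.29 without replicate 1 of both groups, 0.25 without replicate 2 of both groups and 0.13 in limma without the mean-variance trend.

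Exosc7, which encodes the ring subunit RRP42 (chr9:123113215-123136129, plus strand), missed the threshold. It measured 30.1, 30.1 and 27.8 CPM in siCtrl and 21.9, 25.7 and 24.1 CPM in siAldoa. The groups did not overlap, and at 81.4% of the control mean the difference was of the size seen for Exosc5, at a lower level (log2 fold change -0.29, SE 0.11, 95% interval -0.52 to -0.06, limma adjusted p = 0.069). Exosc7 passed in none of the 18 alternative settings, with adjusted p between 0.051 and 0.32.

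Exosc8 and Exosc4, the ring subunits RRP43 and RRP41, showed overlapping groups. Exosc8 (chr3:54728678-54735393, minus strand) measured 57.0, 63.2 and 56.6 CPM in siCtrl and 59.4, 51.3 and 51.3 CPM in siAldoa. Its siAldoa replicate 1 was above siCtrl replicates 1 and 3 (log2 fold change -0.13, SE 0.081, 95% interval -0.29 to 0.04, limma adjusted p = 0.32). The log2 fold change of Exosc8 was -0.08 without siCtrl replicate 2 and -0.19 without siAldoa replicate 1. Exosc4 (chr15:76327397-76330677, plus strand) measured 24.1, 25.4 and 29.4 CPM in siCtrl and 28.3, 27.5 and 25.1 CPM in siAldoa. High and low values of Exosc4 were found in both groups, and its log2 fold change of 0.04 (SE 0.11, 95% interval -0.19 to 0.27, limma adjusted p = 0.86) was below 0 without siCtrl replicate 1 (-0.02) and without replicate 1 of both groups (-0.05). The intervals of Exosc4 and Exosc8 still include decreases of the size measured for Dis3.

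**Figure D2:**
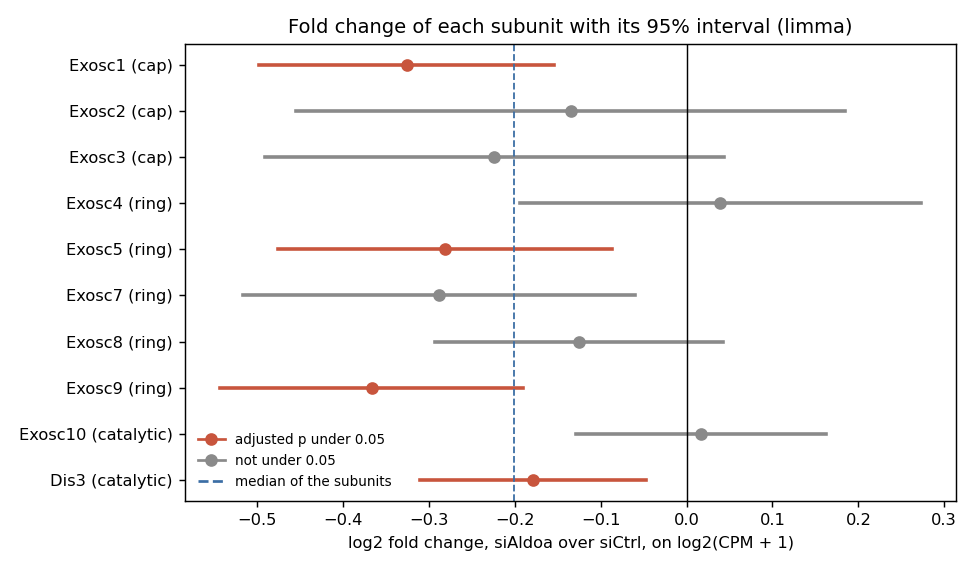
Log2 fold change of siAldoa over siCtrl on log2(CPM + 1) for each subunit (points) with its 95% interval from limma (lines); red marks an adjusted p under 0.05 and the dashed line the median of the 10 subunits at -0.20. The intervals of Exosc1, Exosc5, Exosc7, Exosc9 and Dis3 lie wholly below 0, and those of Exosc4 and Exosc10 are centred near 0.

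The catalytic subunits differed from each other in their call. Dis3, the exonuclease and endonuclease also known as RRP44 (ENSMUSG00000033166, chr14:99075206-99099770, minus strand), fell slightly. It measured 88.5, 86.7 and 91.3 CPM in siCtrl and 76.1, 82.1 and 77.0 CPM in siAldoa. The groups were apart, with siAldoa replicate 2 nearest to the control. The mean went from 88.8 ± 2.30 to 78.4 ± 3.21 CPM (SD, n = 3), a log2 fold change of -0.18 (SE 0.064, 95% interval -0.31 to -0.05, limma adjusted p = 0.049). edgeR called it (adjusted p = 0.047) and DESeq2 did not (adjusted p = 0.21). The limma adjusted p was 0.10 without siCtrl replicate 1, 0.074 without siCtrl replicate 2, 0.14 without siCtrl replicate 3, 0.14 without siAldoa replicate 1, 0.049 without siAldoa replicate 2 and 0.13 without siAldoa replicate 3. It was 0.23 without replicate 1, 0.087 without replicate 2 and 0.24 without replicate 3 of both groups (log2 fold change -0.15 without replicate 3), 0.17 without the mean-variance trend and 0.055 with a pseudocount of 0.1.

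Exosc10, the nuclear exonuclease RRP6 (ENSMUSG00000017264, chr4:148558429-148582401, plus strand), was not called. It measured 89.0, 80.2 and 91.5 CPM in siCtrl and 82.0, 86.3 and 95.6 CPM in siAldoa. The groups overlapped, with the lowest value in siCtrl and the highest in siAldoa. The log2 fold change was 0.02 (SE 0.070, 95% interval -0.13 to 0.16, limma adjusted p = 0.91) and was below 0 in the fits without siCtrl replicate 2 (-0.04), without siAldoa replicate 3 (-0.04) and without replicate 2 or replicate 3 of both groups (-0.03 and -0.005). Exosc10 had 293 to 365 reads per library, the best covered gene of the complex together with Dis3.

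Within each library, the log2 ratio of Dis3 to Exosc10 was -0.01, 0.11 and -0.00 in siCtrl and -0.11, -0.07 and -0.31 in siAldoa. The ratios did not overlap, and the means differed by -0.20 (two-sided exact permutation test over the 6 libraries, p = 0.1, the smallest p that 3 against 3 libraries can give). The pair was compared after its values were seen. The same exact test gave 0.1 for each of the 6 subunits whose groups were apart and 0.3 to 0.9 for the others.

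Per kilobase of the principal annotated transcript, the control level was highest for Exosc1 at 56.0 CPM per kb, followed by Exosc8 at 45.3, Exosc9 at 39.5, Exosc10 at 31.1, Exosc7 at 27.9, Exosc5 at 26.3, Exosc3 at 20.2, Dis3 at 17.2, Exosc4 at 14.6 and Exosc2 at 8.78 CPM per kb. Of the neighbours in this order, only Exosc7 (26.4 to 28.6 over the siCtrl libraries) and Exosc5 (23.8 to 28.7) overlapped. Dis3, which has the longest transcript, was thus among the most abundant subunits by CPM and among the lowest per length. The order depends on the transcript model. With the length of all annotated exons merged, Exosc10 came first at 24.2 and Exosc7 last at 4.88 CPM per kb.

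Several subunit genes share their ends with a neighbour. These neighbours were looked up after the values of the subunits had been seen, and they lie outside the rule for named genes. Exosc9 overlaps Ccna2 (cyclin A2, which drives DNA replication and entry into mitosis) over 510 exonic bases on the opposite strand. Ccna2 measured 184, 166 and 169 CPM in siCtrl and 154, 140 and 149 CPM in siAldoa, with the groups apart, and fell by a log2 fold change of -0.23 (SE 0.055, limma adjusted p = 0.0039). Dis3 shares 325 exonic bases with Pibf1, whose log2 fold change was -0.13 (limma adjusted p = 0.67). Exosc5 shares 355 bases with Tmem91, which reached 1.62 CPM at most, and Exosc4 385 bases with Oplah, which reached 5.61 CPM at most. Exosc2 shares 358 bases with the antisense gene Gm13427, Exosc8 89 bases with Supt20 and Exosc3 53 bases with Dcaf10. Whether reads were assigned by strand is not given in the sources used here, so reads from these shared bases cannot be told apart.

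Exosc1, Exosc5, Exosc7 and Exosc8 start close to a divergently transcribed neighbour. Exosc7 starts 10 bases from Zdhhc3, a palmitoyltransferase gene, which measured 136, 137 and 125 CPM in siCtrl and 114, 121 and 117 CPM in siAldoa and fell (log2 fold change -0.18, limma adjusted p = 0.026). Exosc8 starts 146 bases from Alg5, an enzyme gene of N-glycan precursor synthesis, which measured 36.7, 39.9 and 33.6 CPM in siCtrl and 28.9, 28.9 and 30.9 CPM in siAldoa and fell (log2 fold change -0.30, limma adjusted p = 0.033). In both pairs limma called the neighbour and not the subunit. edgeR called Zdhhc3 and Alg5 as well (adjusted p = 0.020 and 0.034). DESeq2 called neither (adjusted p = 0.12 and 0.16), and limma with the replicate block did not call Alg5 (adjusted p = 0.062). For Exosc1 and Exosc5, which limma called, the neighbours were not called. Zdhhc16 starts 57 bases from Exosc1 and had a log2 fold change of 0.15 (limma adjusted p = 0.30), and Bckdha starts 183 bases from Exosc5 and had -0.16 (limma adjusted p = 0.74). Bckdha was low, at 2.16 to 4.38 CPM over the libraries, with 8 to 16 reads in each. Its limma interval of -0.72 to 0.39 includes the log2 fold change of Exosc5 (-0.28), so whether Bckdha moved with Exosc5 cannot be told. The difference in response within a pair was not tested.

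Among the cofactors that work with the exosome, some were called lower and some higher. Of 19 listed nuclear cofactors, 17 were in the table, of which 2 were called lower (11.8%) and 4 higher (23.5%), with a median log2 fold change of -0.07. Beside these stand 10.0% lower and 10.4% higher among all genes, and 17.7% lower and 16.6% higher among those expressed at or above the least abundant subunit. The lower share was thus near the background. The higher share, 4 genes of 17, was not far above that of the genes at comparable expression. C1d, a small protein that binds EXOSC10 and structured RNA, measured 57.0, 54.2 and 56.1 CPM in siCtrl and 48.0, 44.4 and 46.6 CPM in siAldoa (log2 fold change -0.26, limma adjusted p = 0.018). Nvl, an ATPase of the large ribosomal subunit pathway, fell by a log2 fold change of -0.18 (limma adjusted p = 0.039). The groups were apart for both.

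Zfc3h1, the zinc finger scaffold of the connection that delivers polyadenylated nuclear RNA to the exosome, measured 110, 120 and 112 CPM in siCtrl and 148, 143 and 141 CPM in siAldoa. It rose by a log2 fold change of 0.33 (SE 0.055, limma adjusted p = 7.9e-05). The noncanonical poly(A) polymerases Papd5 (log2 fold change 0.31, limma adjusted p = 0.0016) and Papd7 (0.23, limma adjusted p = 0.027), which tag nuclear RNA for decay, rose too. So did Gltscr2, the NOP53 protein that brings the exosome to pre-ribosomes (0.20, limma adjusted p = 0.049). In these 4 genes all siAldoa libraries were above all siCtrl libraries. edgeR called the same 6 nuclear cofactors, whereas DESeq2 called only Zfc3h1 and Papd5 and gave adjusted p of 0.13 for Papd7, 0.20 for Gltscr2, 0.13 for C1d and 0.19 for Nvl.

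Skiv2l2, the MTR4 helicase that feeds RNA to the nuclear exosome, measured 110, 100.4 and 101 CPM in siCtrl and 98.0, 119 and 99.2 CPM in siAldoa, with overlapping groups (log2 fold change 0.02, limma adjusted p = 0.90). Zcchc8, its partner in the nuclear exosome targeting complex, had a log2 fold change of -0.05 (limma adjusted p = 0.73). The cytoplasmic cofactors (4 of 5 listed in the table) had 0 calls in limma at the adjusted threshold, 1 at an unadjusted p under 0.05, and 0 in edgeR and DESeq2. Skiv2l, the helicase of the SKI complex, had a log2 fold change of 0.05 (limma adjusted p = 0.70) and its scaffold Ttc37 one of -0.17 (limma adjusted p = 0.090). Among the 21 cofactors, limma called 6 with all libraries, 4 without siCtrl replicate 1 (Nrde2, Papd5, Papd7 and Zfc3h1, of which Nrde2 was not called with all libraries), 5 without siCtrl replicate 2, 2 without siCtrl replicate 3, 3 without siAldoa replicate 1, 2 without siAldoa replicate 2 and 3 without siAldoa replicate 3. Zfc3h1 and Papd5 were called in each of these 6 fits. Papd5 was not called without replicate 1, 2 or 3 of both groups, nor without the mean-variance trend. Zfc3h1 was not called without replicate 3 of both groups.

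**Figure D3:**
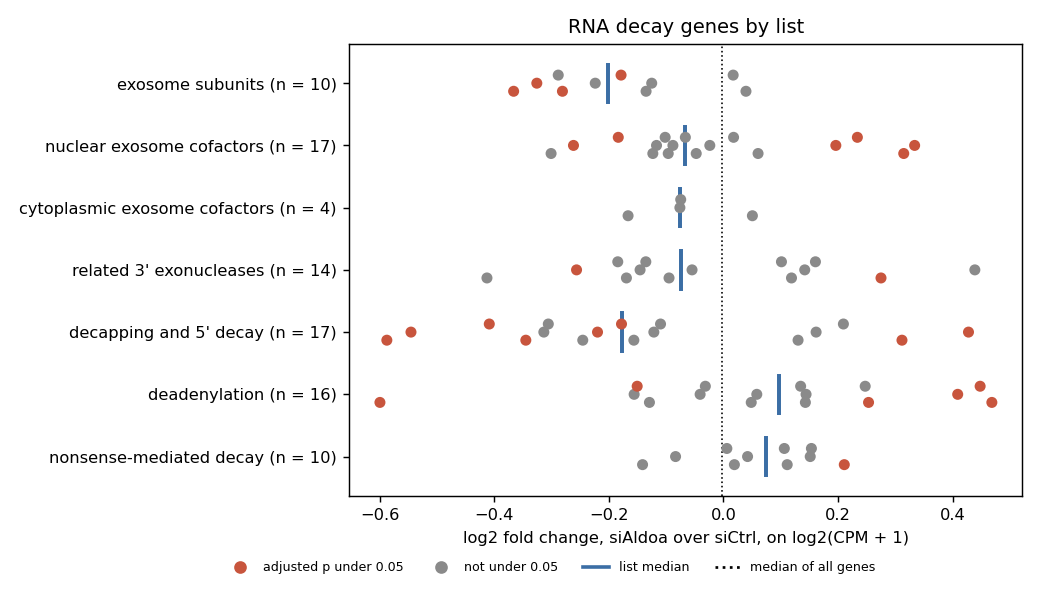
Log2 fold change of siAldoa over siCtrl on log2(CPM + 1) for every gene of 7 lists of RNA decay genes (points, red where the limma adjusted p is under 0.05), with a bar at each list median and a dotted line at the median of all genes. The exosome subunits have their median at -0.20 and red points only below 0, while the nuclear cofactors have 2 red points below and 4 above.

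The list of other 3′ exonucleases held 14 genes, among them the helicase Supv3l1. Of these 14 genes, 1 was called lower and 1 higher (7.14% each, beside 10.0% and 10.4% of all genes). Their log2 fold changes ran from -0.41 to 0.44 with a median of -0.07. The genes at these ends of the range had few reads (16 to 36 and 16 to 35 per library). Pnpt1, the mitochondrial polynucleotide phosphorylase that resembles the exosome ring, measured 58.3, 57.7 and 53.4 CPM in siCtrl and 50.5, 46.0 and 45.0 CPM in siAldoa. The groups were apart, and it fell by a log2 fold change of -0.26 (SE 0.080, limma adjusted p = 0.024). Eri3, a member of a family of 3′ exonucleases, rose (log2 fold change 0.28, limma adjusted p = 0.00086). The DIS3 paralogs Dis3l, the catalytic subunit of the cytoplasmic exosome (log2 fold change -0.10, limma adjusted p = 0.63), and Dis3l2, which works without the exosome (0.16, limma adjusted p = 0.74), were not called.

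Decay from the 5′ end was the other list with a median below that of all genes by a similar margin (-0.18). Of its 19 genes, 17 were in the table, 6 were called lower (35.3%, beside 10.0% of all genes) and 2 higher (11.8%, beside 10.4%). The shares for genes expressed at or above the least abundant exosome subunit were 17.7% lower and 16.6% higher. The lower genes with the largest differences were subunits of the LSm ring, which binds shortened mRNA tails and promotes decapping, namely Lsm3 (log2 fold change -0.59), Lsm4 (-0.55), Lsm1 (-0.41) and Lsm6 (-0.35), with limma adjusted p between 2.3e-06 and 0.0098. Lsm4 measured 103, 102 and 108 CPM in siCtrl and 73.4, 64.4 and 75.9 CPM in siAldoa, well apart. All but Lsm1 of these also belong to the nuclear LSm ring of the spliceosome. The higher genes were Patl1, a decapping activator (0.43, limma adjusted p = 4.5e-06), and Xrn1, the cytoplasmic 5′ exonuclease (0.31, limma adjusted p = 0.028).

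In the deadenylation list, 16 of 17 genes were in the table, 2 were called lower (12.5%, beside 10.0% of all genes) and 4 higher (25%, beside 10.4%), with a median log2 fold change of 0.10. Genes expressed at or above the least abundant exosome subunit had shares of 17.7% lower and 16.6% higher. Cnot6, a deadenylase subunit of the CCR4-NOT complex, fell from 262, 252 and 264 CPM in siCtrl to 166, 178 and 168 CPM in siAldoa (log2 fold change -0.60, limma adjusted p = 1.6e-09). The scaffold Cnot1 fell as well (-0.15, limma adjusted p = 0.034). The antiproliferative adaptors Btg1 (0.47, limma adjusted p = 2.9e-08), Tob2 (0.45, limma adjusted p = 1.1e-05) and Btg2 (0.41, limma adjusted p = 0.037) rose, as did the deadenylase Cnot8 (0.25, limma adjusted p = 0.048), although the groups of Cnot8 overlapped. Of 10 genes of nonsense-mediated decay, none was called lower in limma, edgeR or DESeq2 (0 at an unadjusted limma p under 0.05), and 1 was called higher (10.0%, beside 10.4% of all genes), the kinase Smg1 (0.21, limma adjusted p = 0.0012, list median 0.07). Of the genes named in these lists, edgeR called all that limma called, and DESeq2 did not call Pnpt1 (adjusted p = 0.14), Xrn1 (0.13), Cnot1 (0.0795), Cnot8 (0.18) or Btg2 (0.14).

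**Figure D4:**
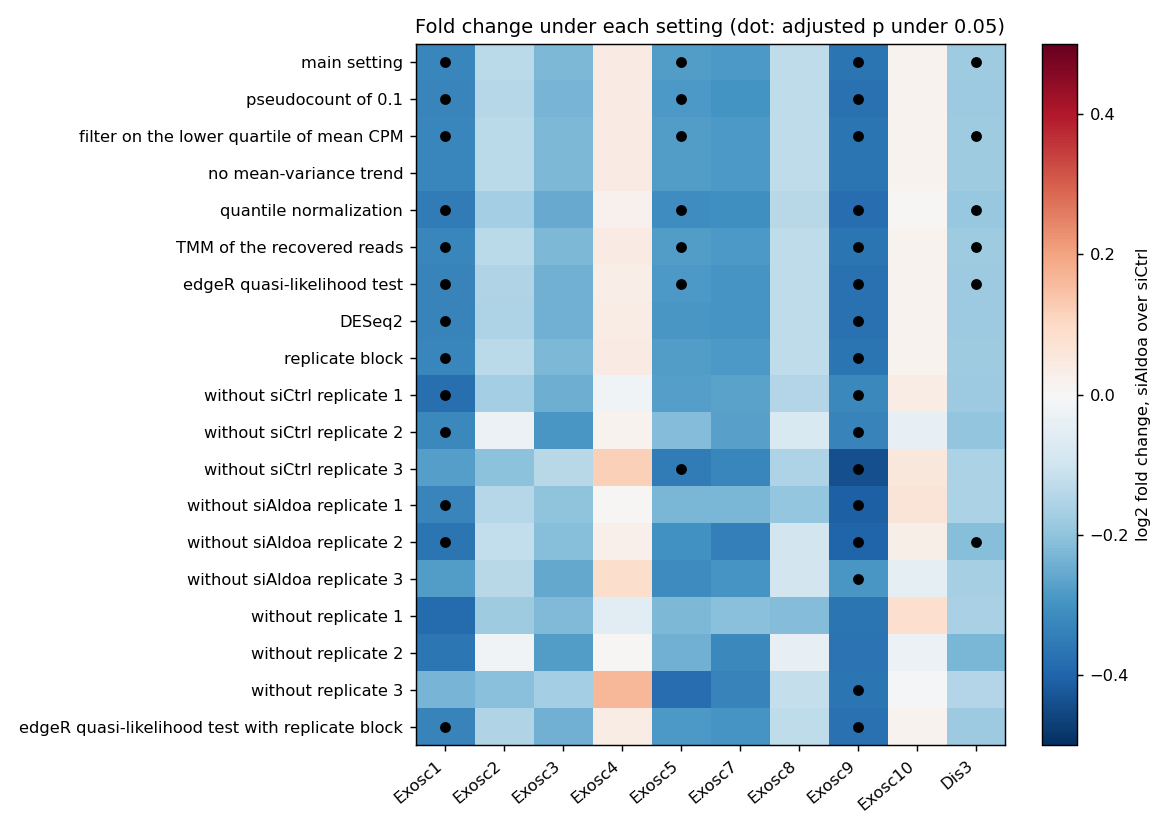
Log2 fold change of siAldoa over siCtrl (colour, blue for lower and red for higher) of each subunit under the main setting and 18 alternatives (one per line), with a dot where the adjusted p was under 0.05. Exosc9 was called in 15 of the 18 alternatives, Exosc1 in 12, Exosc5 in 6 and Dis3 in 5, and Exosc4 and Exosc10 change sign when libraries are left out. The TMM alternative repeats the main setting, as the deposited values were already scaled by an effective library size.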

How the data were processed

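The labels place 3 poly(A) RNA libraries of NIH/3T3 cells in each group. The authors prepared them with a directional kit, aligned them to mm10 with Bowtie2 (version 2.2.7), drew the same number of reads at random from each, summarized these by gene with GenomicAlignments and deposited values in CPM, scaled by an effective library size, for 18001 genes. ERCC RNA was added in the lysis buffer for replicate 1 and after extraction for replicates 2 and 3. The annotation release, the use of strand and the treatment of multimapping reads are not given in the sources used here. A filter on genes under 12 reads is described, and 1834 such genes were in the table. A second deposited table holds the authors' own test of the groups (log2 fold changes, log2 mean CPM, p-values) and was not used.

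Whole reads were recovered from the CPM steps (100% of values whole within 0.001). 3 reads correspond to 0.786 to 0.822 CPM, and intervals and errors from reads cover counting error only. For the comparison of siAldoa with siCtrl, log2(CPM + 1) values were fitted in limma 3.58.1 (R 4.3.3) with a trend of the variance on the mean and no filter on low values. The tests were two-sided, and p-values were adjusted by Benjamini-Hochberg across the 18001 genes with a threshold of 0.05. A fold change on this scale understates that of low genes. Alternatives were a pseudocount of 0.1, a filter on the lower quartile of mean CPM, no trend, quantile normalization, TMM, edgeR's quasi-likelihood test (version 4.0.16) and DESeq2 (version 1.42.0) on the recovered reads, the replicate block, and libraries left out. edgeR with the block was added after seeing the data. The steps were tested on simulated data. That simulation held larger changes than the subunits showed and no effect of the replicate number, so it does not speak to their calls. The subunits, the lists and the motifs were chosen with earlier results of these data known. Named were all subunits, Aldoa, up to 4 called genes per direction and list with the largest difference, and a few defining cofactors. Promoter sequences were RefSeq's and gene positions GENCODE's, both for GRCm38.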

Additional observations from a re-analysis of the deposited data

How the results depend on the processing

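The main setting called 3676 genes (1809 lower, 1867 higher), 4 exosome subunits and 6 cofactors. Without the mean-variance trend limma called 1440 genes (616 lower, 824 higher), 0 subunits (5 at an unadjusted p under 0.05) and 1 cofactor, and DESeq2 called 2183 genes (1117 lower, 1066 higher), 2 subunits (Exosc1 and Exosc9) and 2 cofactors. With libraries left out, limma called 1014 to 2813 genes, 0 to 3 subunits and 0 to 5 cofactors. The 0 subunits came without replicate 1 or without replicate 2 of both groups (3 and 4 at an unadjusted p under 0.05), and the 0 cofactors without replicate 3 of both groups (6 at an unadjusted p under 0.05). These fits hold fewer samples. For the other changes the cause was not tested. The log2 fold change of Exosc4 lay between -0.053 and 0.167 and that of Exosc10 between -0.044 and 0.084 with libraries left out, and both changed sign there. The other 8 subunits kept their sign in all 18 alternatives, and Aldoa stayed between -3.00 and -2.90.

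The fit with the replicate block called 3170 genes, 3151 of them shared with the main setting, 2 subunits (Exosc1 and Exosc9; adjusted p = 0.062 for Exosc5 and 0.080 for Dis3) and 3 cofactors (C1d, Papd5 and Zfc3h1), and edgeR with the replicate block, added after seeing the data, likewise called 2 subunits and 3 cofactors. Deviations from the group means of same-numbered libraries correlated at 0.0936, 0.0898 and 0.298 over 6616 genes. Replicate 3 of the groups deviated alike (0.298), and its correlations with the other numbers were negative, from -0.223 to -0.127. Replicates 1 and 2 did not pair by number, as siCtrl replicate 2 correlated best with siAldoa replicate 1 (0.158). The main fit took no pairs and leaves the shared part of replicate 3 unmodelled, which the block fits include. Depth limits the low subunits most, as counting error alone was 13.8% for Exosc2 and 11.5% for Exosc3.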
